A study of Mus musculus with 2 samples.

Results

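Differentiated proximal tubule cells of the postischemic kidney were examined in single-cell RNA libraries of a Cre- mouse and of a mouse labelled PHDTiEC. A barcode, which stands for 1 droplet and usually for 1 cell, was kept with 3000 to 100000 unique molecular identifiers (UMIs, each a captured RNA molecule), at least 200 genes, at most 50% mitochondrial UMIs and a complexity (log10 genes over log10 UMIs) of at least 0.8. Of 13606 such barcodes, 677 were taken as differentiated proximal tubule barcodes, 249 of 6419 in the Cre- library and 428 of 7187 in the library labelled PHDTiEC. They were selected on their own counts. The transporters *Slc34a1*, *Slc5a12*, *Slc22a6* and *Slc13a1* together had to reach 8 UMIs per 10000, the injury genes *Havcr1* and *Krt20* together could hold at most 2 UMIs, *Slc12a1* of the thick ascending limb had to stay under 3 UMIs, and the leukocyte gene *Ptprc* had to be at 0. Levels of these 8 genes are therefore given as a description.

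The proximal tubule reclaims most of the filtered sodium, glucose, amino acids, phosphate and protein through apical cotransporters and the endocytic receptors megalin and cubilin. Its cells burn fatty acids in mitochondria and peroxisomes, make glucose, and secrete drugs and organic ions into the urine. After ischemia, surviving cells lose part of this program, express *Havcr1* (KIM-1) and *Krt20*, and either regain their transporters or stay in a proinflammatory state marked by *Vcam1*.

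Both mice were 8 to 10 weeks old at surgery, and the study's methods give them as males. The mutant carried Cdh5-CreERT2 with the floxed alleles Phd1f/f, Phd2f/f and Phd3f/f, and the control was a Cre- littermate. Both underwent 25 minutes of unilateral renal artery clamping and then 4 intraperitoneal injections of tamoxifen, 3 mg each, given on alternate days from day 1 on, and the clamped kidney was dissociated on day 14. The *Cdh5* promoter drives Cre in endothelium, so proximal tubule cells are not the cells in which the floxed oxygen sensors were targeted. With 1 library of 1 mouse per genotype, the genotype cannot be told apart from the mouse, the dissociation or the library. Nothing was tested between them, and all intervals are exact 95% intervals that cover counting error only.

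The floxed genes were read first. In the differentiated barcodes, *Egln1*, which encodes PHD2 (chromosome 8 of GRCm38, 124908587 to 124949324), had 192 and 389 UMIs, or 41.3 counts per 1000000 UMIs (CPM) in the Cre- library and 48.5 CPM in the library labelled PHDTiEC. The log2 ratio of CPM, the library labelled PHDTiEC over the Cre- library, was 0.23 (95% interval -0.02 to 0.49). *Egln2*, which encodes PHD1 (chromosome 7, 27158658 to 27166802), had 44.5 and 41.0 CPM with a ratio of -0.12 (-0.37 to 0.14). *Egln3*, which encodes PHD3 (chromosome 12, 54178981 to 54203860), had 15 and 31 UMIs with a ratio of 0.26 (-0.67 to 1.26). All 3 intervals held 0. UMIs of a gene look the same whether or not its floxed exon is present, so these values do not check the genotype in either direction.

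The libraries held 136004367 and 146758812 UMIs, and the differentiated barcodes took 4651982 and 8018404 of them. The median differentiated barcode had 15961 UMIs and 3714 genes in the Cre- library and 14737.5 UMIs and 3869.5 genes in the library labelled PHDTiEC. The members' summed depth thus differed more than their depth per barcode. Mitochondrial UMIs took a median of 12.7% and 8.85% of a differentiated barcode, and the same order held in barcodes with at least 2 UMIs of *Ptprc* (3.46% and 2.49%) and in injured proximal tubule barcodes (4.495% and 3.411%). Free RNA was estimated at 2.07% and 1.90% of the members' UMIs, from 74 and 107 UMIs of *S100a8*, *S100a9* and *Aqp2*, genes of neutrophils and collecting duct. Of 15 filtered barcodes whose sequence occurs in both libraries, 1 was a differentiated barcode in both, and without all 15 the members numbered 248 and 425.

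Differentiated barcodes were the larger share of the library labelled PHDTiEC. They made up 3.88% of filtered barcodes in the Cre- library (3.42 to 4.38, Clopper-Pearson) and 5.96% in the library labelled PHDTiEC (5.42 to 6.53), a ratio of 1.54. Among barcodes without *Ptprc*, where leukocytes do not enter the denominator, the shares were 8.73% and 13.7%, a ratio of 1.57. Injured proximal tubule barcodes, defined by the same filters with 5 or more UMIs of *Havcr1* and *Krt20*, went the other way, with 359 (5.59%) and 303 (4.22%). Of the barcodes that met the transporter sum and held neither *Ptprc* nor 3 UMIs of *Slc12a1*, 249 of 445 (56.0%, 51.2 to 60.6) and 428 of 594 (72.1%, 68.3 to 75.6) were within the limit on *Havcr1* and *Krt20*. The intervals of each of these shares did not overlap between the libraries, and variation between mice is not part of them.

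**Figure D1:**
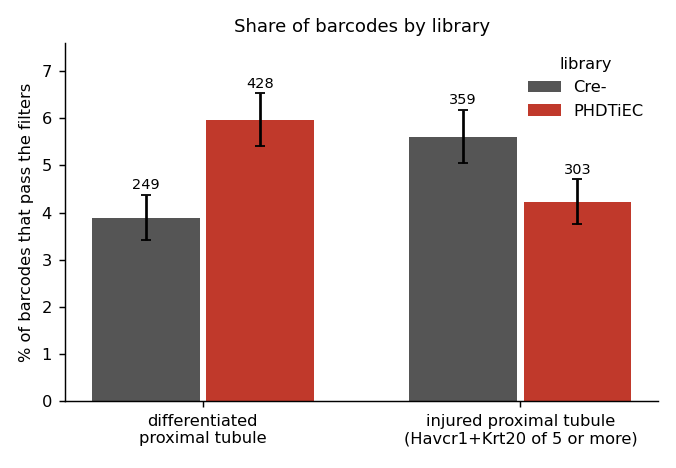
Bars give the percentage of filtered barcodes that were differentiated or injured proximal tubule barcodes in each library, with exact 95% binomial intervals and the number of barcodes above each bar. The differentiated share was 3.88% and 5.96% and the injured share 5.59% and 4.22%, Cre- first.

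The limits of the rule left few barcodes at its edges. With all other conditions met, 11 and 14 barcodes had a transporter sum of 6 to under 8 per 10000 UMIs, just under the limit, and 5 and 15 members had a sum of 8 to under 10. Most members, 227 and 383, had a sum of 16 or more, and the median sum was 43.8 and 38.1 per 10000. At the other limit, 31 and 54 members held 2 UMIs of *Havcr1* and *Krt20*, and 38 and 45 barcodes were kept out with 3 or 4 UMIs. A further 158 and 121 barcodes had the transporter sum together with 5 or more UMIs of the injury genes.

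The label of a differentiated proximal tubule cell was then checked against genes the rule did not use. *Lrp2*, which encodes megalin, had a UMI in 97.2% of members in each library, at 877 and 780 CPM, and *Cubn*, its partner cubilin, in 77.9% and 76.4%, at 144 and 162 CPM. *Pck1*, the rate-limiting enzyme of gluconeogenesis, had 135 and 138 CPM and a UMI in 63.9% and 54.7% of members. These 3 markers were thus present in most members of both libraries. *Kap*, also listed as a marker, had a UMI in only 24.5% and 5.84% of members. In injured barcodes *Lrp2* had a UMI in 72.4% and 69.3%, *Cubn* in 55.99% and 47.85% and *Pck1* in 22.56% and 18.15%. *Lrp2* and *Cubn* thus mark proximal tubule more than its differentiated state.

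The members were not free of injury genes. *Spp1*, osteopontin, was seen in every member, at 20326 and 19965 CPM, but also in 97.3% and 92.3% of the *Ptprc* barcodes, and it took 15448 and 11237 CPM of the free RNA, so its detection says little about the members. *Vcam1* had a UMI in 43.4% and 44.4% of members against 95.3% and 91.1% of injured barcodes, and in 18.9% and 16.2% of the *Ptprc* barcodes. Its level was 129 and 101 CPM, which gives a ratio of -0.35 (-0.50 to -0.19), with a range of -1.25 to -0.05 over the alternatives. *Havcr1* had 107 and 179 UMIs in all within the limit that the rule sets, with a UMI in 30.9% and 29.7% of members. In injured barcodes, which were chosen by it, 99.7% and 98.7% had a UMI, at 887 and 731 CPM.

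The 4 transporters of the rule differed in how they compared between the libraries. *Slc34a1*, the main phosphate cotransporter, had 2832 and 2325 CPM, which gives a ratio of -0.28 (-0.32 to -0.25). As the rule chose members by it, its UMI in 98.8% and 98.6% of members is a description only, and 9.19% and 8.18% of the *Ptprc* barcodes, with a median depth of 8237 and 8592.5 UMIs, had one. *Slc13a1*, the sodium sulfate cotransporter, had 1006 and 1089 CPM (0.11), and *Slc5a12*, a lactate cotransporter, had 364 and 327 CPM (-0.15). *Slc22a6*, which encodes the organic anion transporter OAT1, had 147 and 68.6 CPM, which gives a ratio of -1.10 (-1.27 to -0.94), and was the only one of the 4 past a log2 ratio of 0.5 in size. As a gene of the rule, *Slc22a6* is left out of the organic ion transporters counted below.

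Most members had the genes of the early segments. The S1 and S2 list (among others *Slc5a2*, *Slc2a2* and *Slc7a7*) outnumbered the S3 list (among others *Slc7a13*, *Atp11a* and *Slc5a8*) in 240 of 249 and 422 of 428 members, and the S3 list was ahead in 5 and 4. A median member held 64 and 54 UMIs of S1 and S2 genes and 1 UMI of S3 genes in each library. The S1 and S2 list also led in 310 of 359 and 268 of 303 injured barcodes. Its genes summed to 5470 and 5207 CPM in members, against 231 and 118 CPM for the S3 list. The lead thus depends on which genes the lists hold. As the rule also chose members by transporters, it is a description only. *Slc5a2*, the SGLT2 glucose cotransporter that gliflozins block, had 511 and 480 CPM (log2 ratio -0.09, -0.17 to -0.02). *Slc7a7*, a basolateral amino acid exchanger, had 287 and 337 CPM (0.23, 0.13 to 0.32). The median log2 ratio of the 11 S1 and S2 genes was -0.09.

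S3 RNA was lower in the library labelled PHDTiEC. At least 1 UMI of the S3 list was seen in 179 members of the Cre- library (71.9%, 65.9 to 77.4) and in 252 of the library labelled PHDTiEC (58.9%, 54.1 to 63.6). The 8 genes summed to 231 and 118 CPM, and the 4 of them with at least 50 UMIs had a median log2 ratio of -1.17 and were all negative. *Atp11a*, a phospholipid flippase, carried most of it, with 124 and 48.4 CPM (-1.36, -1.55 to -1.17). *Slc7a13*, a glutamate and aspartate carrier and a defining S3 gene, had 82 and 47 UMIs, of which 51.2% in the Cre- library came from 1 barcode. *Slc5a8* had 27.7 and 14.1 CPM (-0.98, -1.35 to -0.60), with 27.1% of its Cre- UMIs from 1 barcode. Of the 3 S3 genes with at least 200 UMIs, 2 had a log2 ratio of at most -0.5 and 1 did not, against 2.11% of all genes. Because S3 RNA differed between the libraries, the results below were also computed in members with no S3 UMI. That subset is no clean control for segment. *Atp11a* had a UMI in 151 of the 179 and 193 of the 252 members with an S3 UMI. It also had 132 and 96.6 CPM in injured barcodes and 39.9 and 37.2 CPM in *Ptprc* barcodes. Members without an S3 UMI may also be of lower depth, which was not tested.

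Across all genes, the 2 libraries were close in these barcodes. Of 6494 genes with at least 200 UMIs in the members, 283 (4.36%) had a log2 ratio of at least 0.5 and 137 (2.11%) one of at most -0.5. These are counts by size of ratio, not of tested changes, and the same 2 shares are the background for the list counts that follow. The median log2 ratio of 10262 genes with at least 50 UMIs was 0.06. Of these genes, 6060 had a positive and 4202 a negative ratio, the background for counts of signs in the lists. The split depended on scaling, with 187 higher and 194 lower when mitochondrial genes, *Gm26917*, *Gm42418* and *Lars2* were left out of the totals (median -0.01), and 217 and 166 under TMM scaling (median 0.02). In members without an S3 UMI, 119 genes were higher and 71 lower.

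**Figure D2:**
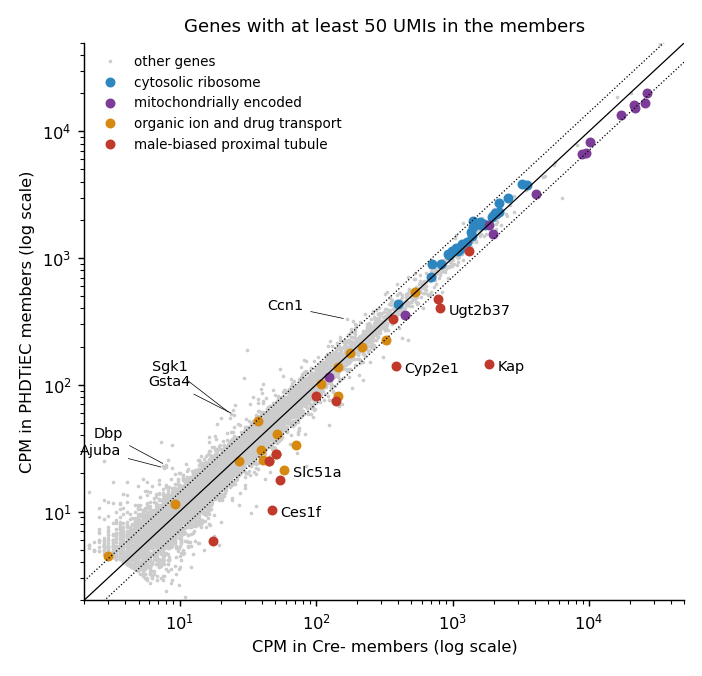
Each point is a gene with at least 50 UMIs in the members, with its CPM in the Cre- library on the horizontal and in the library labelled PHDTiEC on the vertical log axis; the solid line marks equal levels and the dotted lines a log2 ratio of 0.5 in either direction. *Kap* (1842 and 146 CPM) and *Cyp2e1* (382 and 142 CPM) lie far under the diagonal, and the 28 ribosomal protein genes lie within the dotted lines.

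The reabsorptive program was nearly level. Of 27 solute transport genes with at least 200 UMIs, *Slc6a6*, a taurine transporter, was higher past the limit, with 319 and 517 CPM (0.70, 0.61 to 0.79), none was lower past it, and the median log2 ratio of 31 genes was -0.07. All 10 genes of gluconeogenesis and fructose metabolism stayed within the limit, with a median of -0.12, among them *Fbp1* at 630 and 606 CPM and *G6pc* at 123 and 116 CPM. In the 12 genes of receptor-mediated endocytosis the median was 0.10, and 1 of them, the clathrin adaptor *Ap2b1*, was higher past the limit (0.63). *Lrp2* stood at -0.17 (-0.23 to -0.11).

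Fuel genes gave a similar picture. Of 33 genes of fatty acid oxidation and peroxisomes with at least 200 UMIs, none was higher and 1 was lower past the limit, the peroxisomal bifunctional enzyme *Ehhadh* with 46.9 and 33.0 CPM (-0.50, -0.77 to -0.24), which stood at -0.10 without members that held other types' UMIs, and the median of 36 genes was -0.03. *Cpt1a*, which imports acyl chains into mitochondria, had 96.5 and 85.4 CPM (-0.18), and *Acadm* 223 and 202 CPM (-0.14). *Ppara*, the nuclear receptor that drives these genes, had 15.5 and 21.1 CPM (0.45, 0.04 to 0.86). Of its targets, *Cyp4a14* had 27 and 136 UMIs (1.55, 0.94 to 2.20) and was seen in 3.61% and 7.48% of members. It was too sparse for the count past the limit.

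The 30 nuclear genes of the respiratory chain had a median log2 ratio of -0.08, with 4 positive and 26 negative. Over all 10262 genes, 6060 were positive and 4202 negative. *Cycs*, cytochrome c, was the 1 gene past the limit, at 609 and 406 CPM (-0.58, -0.66 to -0.51). The 13 genes encoded by the mitochondrial genome were all negative, with a median of -0.36 and a sum of 149518 and 110240 CPM. The largest difference among them was in *mt-Atp6*, at 25546 and 16675 CPM (-0.62). The same sum was 61018 and 45047 CPM in injured barcodes and 52150 and 36348 CPM in the *Ptprc* barcodes, so it was lower in the library labelled PHDTiEC in all 3 kinds of barcode. The part of RNA quality in this was not tested.

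Organic ion and drug transporters were lower. Of 16 with at least 200 UMIs, 0 were higher and 7 were lower past the limit, against 2.11% of all genes lower, and the median of 18 was -0.23. *Slc22a2*, the basolateral organic cation transporter OCT2, had 71.2 and 33.7 CPM (-1.08, -1.32 to -0.84). *Slc22a12*, the urate transporter URAT1, had 146 and 80.8 CPM (-0.85, -1.01 to -0.69). Not all members of the group were low, since *Slc22a8* (OAT3) had 109 and 102 CPM (-0.09, -0.26 to 0.07) and *Abcg2*, an apical efflux pump for urate and drugs, 527 and 536 CPM (0.02, -0.05 to 0.10). *Slc51a*, a subunit of the basolateral steroid and bile acid exporter, showed the lowest ratio among genes of the group with at least 200 UMIs, with 58.5 and 21.3 CPM (-1.46, -1.74 to -1.17), and its ratio in injured barcodes was -1.64. *Slco1a6* (-0.69), *Slc22a28* and *Slc22a30* (both -0.86) were also lower, *Slco1a6* at -0.36 and *Slc22a30* at -0.44 in members without an S3 UMI.

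Genes that are known to be higher in the male than in the female mouse kidney stood out. The list has 18 genes, 13 with at least 50 UMIs, and all 13 had a negative log2 ratio, with a median of -0.91 and a sum over the list of 5969 and 2876 CPM. Of 12 with at least 200 UMIs, 9 were lower past the limit, against 2.11% of all genes. Several of these genes were already known to be low in the library labelled PHDTiEC when the list was written, so the list is no independent evidence of its direction. Its genes also overlap other lists, with *Cyp2e1*, *Cyp2j13*, *Cyp4b1*, *Ugt2b37*, *Ugt2b38*, *Ces1f* and *Akr1c21* shared with xenobiotic metabolism and *Slc22a28* and *Slc22a30* with the organic ion transporters. *Slc7a13* is shared with the S3 list and *Odc1* with amino acid metabolism. The results of these lists are therefore not separate.

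*Kap*, which encodes the kidney androgen-regulated protein (chromosome 6, 133849851 to 133853762), had 8571 and 1169 UMIs, or 1842 and 146 CPM (-3.66, -3.75 to -3.57). Its UMIs sat in few members, since 24.5% and 5.84% of members had any and 38 and 7 members had 10 or more. The 10 barcodes with the most *Kap* UMIs held 73.0% and 98.6% of them, and the top barcode 1751 and 487 UMIs. In injured barcodes the ratio was -3.41, and in the *Ptprc* barcodes, which should lack the gene, 6.79% and 2.05% had a UMI. The share of these barcodes with a *Kap* UMI thus differed in the same direction. Over the alternatives, among them the subtraction of the free RNA profile, the ratio of *Kap* in members ran from -4.64 to -3.02. The part of free RNA in the members' difference was otherwise not tested.

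*Cyp2e1* (chromosome 7, 140763739 to 140774987), a cytochrome P450 that oxidizes ethanol and small solvents, had 382 and 142 CPM (-1.43, -1.54 to -1.32). It was spread over members, with a UMI in 77.1% and 54.7% of them, and in 53.4% and 28.5% after each member was thinned to 3000 UMIs. Only 2.68% and 1.81% of *Ptprc* barcodes had a UMI. *Ces1f*, a carboxylesterase, had 47.3 and 10.2 CPM (-2.21, -2.59 to -1.84), and *Cyp2j13*, a P450 of fatty acid epoxidation, 54.6 and 17.7 CPM (-1.62, -1.93 to -1.32). *Ugt2b37*, a glucuronosyltransferase, had 807 and 402 CPM (-1.01, -1.07 to -0.94), and 548 and 274 CPM in injured barcodes. *Cyp4b1* had 140 and 74.3 CPM (-0.91, -1.07 to -0.75) in members and a ratio of -0.05 in injured barcodes. The smallest differences of the list were in *Nudt19* (-0.28), *Akr1c21* (-0.22) and *Odc1* (-0.17). Ugt2b, Cyp2j, Ces1 and Slc22a genes lie in families of close copies, so reads may be split between copies and single ratios are uncertain.

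Without *Kap*, the list summed to 4127 and 2731 CPM, and its median per member was 40.9 and 25.3 UMIs per 10000, with quartiles of 24.8 to 56.7 and 16.1 to 37.9. The distributions overlapped widely, and the lower quartile of the Cre- members lay near the median of the members of the library labelled PHDTiEC. In members without an S3 UMI the median log2 ratio of the list was -0.95, and over all alternatives it ran from -1.01 to -0.73. *Ghr*, the growth hormone receptor, had 170 and 147 CPM (-0.20, -0.33 to -0.07).

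**Figure D3:**
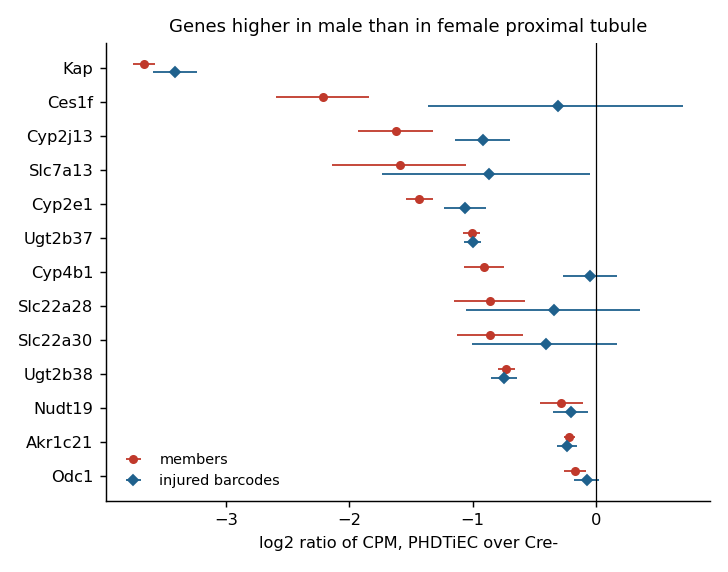
Points give the log2 ratio of CPM, the library labelled PHDTiEC over the Cre- library, for the 13 male-biased genes with at least 50 UMIs, with exact 95% intervals for counting error, in differentiated (circles) and injured (diamonds) barcodes. All 13 ratios in members lie under 0, from -3.66 for *Kap* to -0.17 for *Odc1*.

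The promoters of *Kap* and *Cyp2e1* are shown because they alone among the promoters of the list held the letters TATAAA. RefSeq gave a promoter for 11 of the 13 genes, the exceptions being *Slc7a13* and *Ces1f*. Each sequence is the 250 bases before the RefSeq start on GRCm38.p6, read 5′ to 3′ on the gene's strand, *Kap* at chr6:133853668-133853917 (minus) and *Cyp2e1* at chr7:140763569-140763818 (plus). Capitals mark TATAAA, a form of the TATA box, and other forms of it were not searched.
Kap: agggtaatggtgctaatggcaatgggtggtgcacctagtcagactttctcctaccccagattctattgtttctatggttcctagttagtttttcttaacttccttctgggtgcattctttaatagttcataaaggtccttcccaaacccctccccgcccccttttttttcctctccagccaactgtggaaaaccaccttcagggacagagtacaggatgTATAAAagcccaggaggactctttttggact
Cyp2e1: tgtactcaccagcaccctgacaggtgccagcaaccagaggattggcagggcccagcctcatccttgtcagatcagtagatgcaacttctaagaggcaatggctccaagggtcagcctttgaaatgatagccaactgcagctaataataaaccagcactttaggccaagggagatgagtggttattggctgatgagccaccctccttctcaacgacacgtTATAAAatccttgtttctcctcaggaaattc
The motifs were searched on both strands. TATAAA was in 2 of the 11 promoters and in 12.4% of 32851 RefSeq promoters of this length, and CAAAGTCCA, an HNF4A site, in 0 of 11 and in 0.384%. A match describes letters in this window and not binding.

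Xenobiotic metabolism as a whole was mixed. Of 27 genes with at least 200 UMIs, 3 were higher and 7 lower past the limit, against 4.36% and 2.11% of all genes, and the median of 34 was -0.20. The 3 higher genes are glutathione transferases, *Gsta4* with 25.2 and 58.0 CPM (1.21, 0.91 to 1.51), *Gsta2* with 331 and 542 CPM (0.71, 0.63 to 0.79) and the microsomal *Mgst1* with 150 and 224 CPM (0.58, 0.45 to 0.70). In injured barcodes their ratios were 0.05, -0.16 and 0.02. Of the 7 lower genes, 6 are on the male-biased list, and the seventh was *Nat8*, an acetyltransferase of mercapturate synthesis, with 86.6 and 60.4 CPM (-0.52, and -0.28 without members that held other types' UMIs).

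Glutathione and antioxidant genes had 0 of 18 higher and 4 lower past the limit, against 4.36% and 2.11% of all genes, with a median of -0.17 over 20. *Ggt1*, the brush border enzyme that breaks glutathione down, had 207 and 120 CPM (-0.78, -0.91 to -0.65), and *Dpep1*, the dipeptidase of the following step, 73.5 and 51.1 CPM (-0.52, -0.73 to -0.31). *Gclc*, which limits glutathione synthesis, had 97.0 and 63.5 CPM (-0.61, -0.80 to -0.42). *Selenop*, a selenium carrier, had 835 and 543.5 CPM (-0.62, -0.68 to -0.56). Over the alternatives *Dpep1* ran from -0.83 to -0.35 and *Gclc* from -0.77 to -0.23, so both came inside the limit under some. In injured barcodes *Selenop* was also lower (-0.77) while *Gclc* stood at 0.01.

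In amino acid and creatine metabolism 3 of 25 genes were higher and 3 lower past the limit, against 4.36% and 2.11% of all genes, with a median of -0.13. *Prodh2*, which oxidizes hydroxyproline, had 40.2 and 86.3 CPM (1.10, 0.87 to 1.34). *Kynu* and *Kmo*, enzymes of tryptophan breakdown through kynurenine, had ratios of 1.10 (0.61 to 1.62) and 0.70 (0.32 to 1.09), the latter at 0.15 in members without an S3 UMI. *Acmsd*, further along that route, had 114 and 75.4 CPM (-0.59), so the pathway's genes did not share a direction.

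Among hormone and phosphate signals, 2 of 14 genes were higher and 3 lower past the limit, against 4.36% and 2.11% of all genes. *Agt*, angiotensinogen, had 72.2 and 28.8 CPM (-1.33, -1.57 to -1.08), against -0.28 in injured barcodes. *Guca2b*, uroguanylin, had 428 and 234 CPM (-0.87, -0.96 to -0.78) and -1.38 in injured barcodes, and *Anpep*, a brush border peptidase, 30.7 and 20.2 CPM (-0.61, -0.94 to -0.27). *Prlr*, the prolactin receptor, had 18.5 and 37.7 CPM (1.03, 0.68 to 1.39), and *Gc*, the vitamin D binding protein, 77.2 and 138 CPM (0.84, 0.66 to 1.01). In members without an S3 UMI *Guca2b* stood at -0.40, and *Anpep* came to -0.41 after thinning. *Kl*, the FGF23 coreceptor klotho, had 219 and 175 CPM (-0.33, -0.44 to -0.21).

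The 16 transcription factors that keep proximal tubule identity had a median of -0.08. Of 14 with at least 200 UMIs, 0 were higher and 1 was lower past the limit, against 4.36% and 2.11% of all genes. *Hnf4a*, which drives many transport and metabolic genes of the proximal tubule, had 169 and 157 CPM (-0.11, -0.24 to 0.02).

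The injury and incomplete repair list had a median log2 ratio of 0.07 over 36 genes, close to the 0.06 of all genes, and of -0.035 in members without an S3 UMI. Of 30 with at least 200 UMIs, 8 were higher and 4 lower past the limit, against 4.36% and 2.11% of all genes, so the list had genes far out in both directions. *Ccn1*, a matricellular YAP target, had 168 and 329 CPM (0.97, 0.85 to 1.08), and *Sox4*, a progenitor transcription factor, 123 and 202 CPM (0.72, 0.58 to 0.86), and both stayed past the limit under every alternative run (0.90 to 1.35 and 0.61 to 0.93). *Cdkn1a*, the p21 cell cycle inhibitor, had 57.8 and 91.2 CPM (0.66, 0.45 to 0.86), and ran from 0.36 to 1.06 over the alternatives, 2 of which put it inside the limit. *Sox9*, a factor of tubular repair, went the other way with 64.9 and 34.3 CPM (-0.92, -1.16 to -0.68) and a UMI in 32.5% and 15.9% of members, and it ranged from -2.94 to -0.91 over the alternatives.

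Other genes of the list rested on few barcodes. *Ccn2* had 7.52 and 22.7 CPM (1.59), with 26.4% of the larger library's UMIs from 1 barcode, and stood at 0.09 without members that held 3 or more UMIs of other cell types. *Vim* had 56.8 and 118 CPM (1.05), with 20.9% from 1 barcode, and stood at -0.12 without the highest doublet scores. *S100a6* (0.87) stood at -0.06 in members with no UMI of *Havcr1* or *Krt20*, and *Cdh6* (0.86) at -0.10 in members without an S3 UMI. *Anxa3*, an annexin, had 18.3 and 39.5 CPM (1.11) and stood at 0.31 without members that held other cell types' UMIs. Among the lower genes, *Clu* (-1.06), *Lcn2* (-0.58) and *Ccl2* (-1.78) had 31.1%, 36.3% and 31.0% of their Cre- UMIs from 1 barcode, and each of the 3 changed sign under at least 1 alternative.

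Genes induced through p53 had a median of 0.09 over 14, and 2 of 9 were higher past the limit, against 4.36% of all genes, *Cdkn1a* and the stress cytokine *Gdf15* with 143 and 212 CPM (0.57, 0.44 to 0.70). The former came inside the limit under some alternatives, as given above. Targets of the hypoxia-inducible factors (HIF), which the floxed enzymes restrain, had a median of 0.20 over 20, and 0 of 13 were past the limit in either direction. In the 70 and 176 members without an S3 UMI the median was -0.055. *Vegfa*, the endothelial growth factor that tubule cells release, had 60.0 and 70.0 CPM (0.22, 0.01 to 0.43), *Cited2* 146 and 201 CPM (0.46, 0.33 to 0.59), *P4ha1* 21.3 and 29.9 CPM (0.49, 0.15 to 0.84) and *Ndrg1* 2079 and 1863 CPM (-0.16, -0.20 to -0.12). *Hk2*, hexokinase 2, was sparse with 14 and 95 UMIs (1.98, 1.16 to 2.90), seen in 4.02% and 7.24% of members, and *Slc16a3*, the lactate exporter MCT4, had 1 and 10 UMIs. Over the 16 glycolysis genes the median was -0.05, and 1 of 13, the lactate and pyruvate carrier *Slc16a1*, was lower past the limit (51.6 and 34.8 CPM, -0.57).

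The NF-kB and immediate early list had a median of 0.16 over 44, with 3 of 41 higher and 2 lower past the limit, against 4.36% and 2.11% of all genes, and a median of -0.063 in members without an S3 UMI. *Myc* had 25.2 and 46.4 CPM (0.88, 0.58 to 1.20), *Jun* 1060 and 1524 CPM (0.52, 0.48 to 0.57) and *Klf4* 117 and 168 CPM (0.52, 0.37 to 0.66). Over the alternatives *Jun* ran from 0.16 to 0.67 and *Klf4* from 0.40 to 0.96. *Fos*, at 1043 and 1439 CPM (0.46), was just under the limit, and *Nfkbia*, the inhibitor that NF-kB itself induces, had 134 CPM in each library (0.00, -0.14 to 0.15). Of the 2 lower genes, *Ccl2* is described above and *Cxcl2* had 59.8% of its Cre- UMIs from 1 barcode. The list varied widely among members, with a median of 50.3 UMIs per 10000 and quartiles of 21.0 to 140 in the Cre- library and a median of 76.0 and quartiles of 22.9 to 172 in the library labelled PHDTiEC. The list summed to 8643 and 10449 CPM in members, 15967 and 16589 CPM in injured barcodes and 20699 and 21343 CPM in the *Ptprc* barcodes.

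Interferon-induced and antigen presentation genes had a median of 0.09 over 26, with 0 of 16 higher and 1 lower past the limit, *Cxcl10* (55.9 and 38.9 CPM, -0.52), which ran from -2.71 to -0.51 over the alternatives. Heat shock and unfolded protein response genes had a median of 0.15 over 22, and 3 of 21 were higher past the limit, against 4.36% of all genes, all of the endoplasmic reticulum. *Herpud1* had 130 and 203 CPM (0.64, 0.50 to 0.78), *Xbp1* 59.1 and 91.7 CPM (0.63, 0.43 to 0.84) and *Pdia4* 40.2 and 58.4 CPM (0.54, 0.29 to 0.79, and 0.39 after thinning). The 28 cytosolic ribosomal protein genes were all positive, with a median of 0.14, none past the limit, and a sum of 43152 and 48833 CPM. The median of the ribosomal list was 0.07 when mitochondrial and related genes were left out of the totals.

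Among 14 cholesterol and lipid genes, 2 were higher and 1 lower past the limit, against 4.36% and 2.11% of all genes, and the median over 18 was 0.15. *Apom*, the carrier of sphingosine 1-phosphate, had 37.8 and 72.5 CPM (0.94, 0.69 to 1.19), and stood at 0.35 in members without an S3 UMI. *Apoe* had 1191 and 1880 CPM (0.66, 0.61 to 0.70) and a UMI in 97.6% and 99.8% of members, but it was also the main macrophage transcript on the lineage list, at 15458 and 19830 CPM in the *Ptprc* barcodes. *Srebf1* had 20.4 and 13.2 CPM (-0.63, -1.04 to -0.21) and ran from -1.63 to -0.20 over the alternatives.

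**Figure D4:**
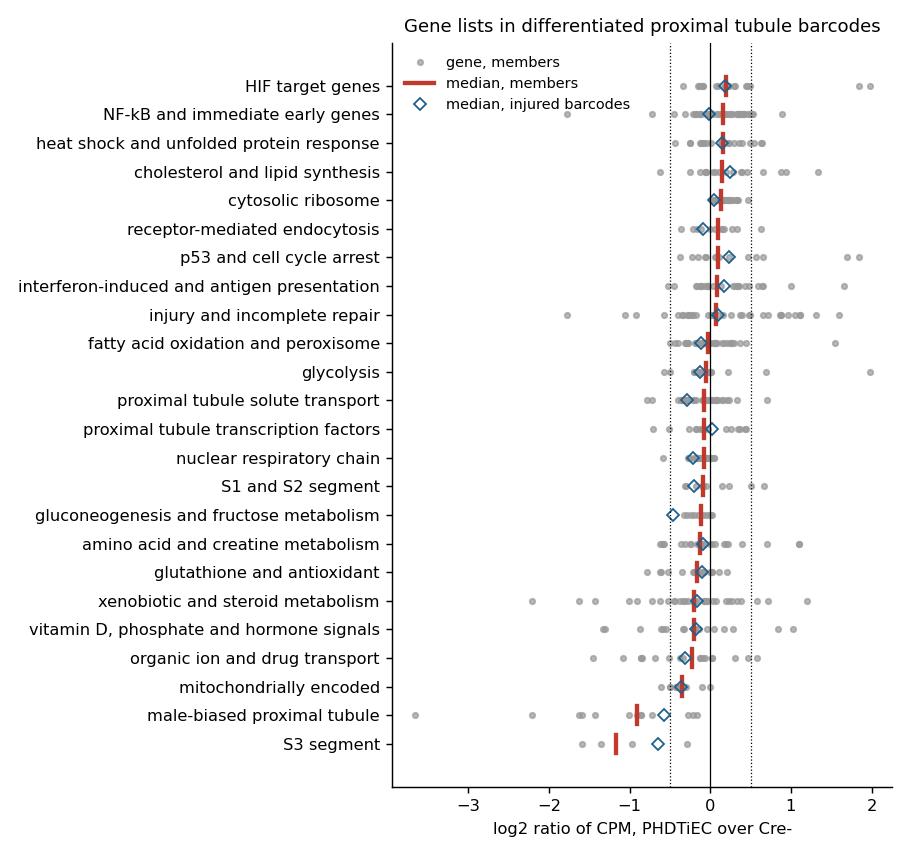
Grey points are genes with at least 50 UMIs, red bars the median of each list in differentiated barcodes and open diamonds the median in injured barcodes, on the log2 ratio of CPM, the library labelled PHDTiEC over the Cre- library; dotted lines mark 0.5 in either direction. Lists of other cell types are left out, and the medians in members of the lists plotted run from -1.17 for the S3 list and -0.91 for the male-biased list to 0.20 for HIF targets.

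The genes with the largest ratios were then taken by size, among those with at least 200 UMIs, seen in at least 10% of members of the higher library and with at most 10% of the UMIs from 1 barcode. The 15 highest were *Dbp*, *Ajuba*, *Cd14*, *Nrg1*, *Sytl2*, *Aebp1*, *Sgk1*, *Ahnak*, *Amotl2*, *Ntn4*, *Nuak2*, *Gsta4*, *Anxa3*, *Prodh2* and *Kynu*. *Dbp*, a clock-controlled transcription factor, had 7.95 and 23.2 CPM (1.54, 1.03 to 2.10) and a UMI in 12.9% and 27.3% of members. *Ajuba* and *Amotl2*, both regulators in the Hippo pathway, had 7.74 and 22.1 CPM (1.51, 0.99 to 2.07) and 23.2 and 54.9 CPM (1.24, 0.93 to 1.56). *Sgk1*, a kinase induced by corticosteroids, had 23.9 and 58.6 CPM (1.30, 1.00 to 1.61). *Nrg1*, an ERBB receptor ligand, had 18.7 and 49.4 CPM (1.40, 1.06 to 1.75), and *Ntn4*, a netrin of basement membranes, 39.6 and 93.3 CPM (1.24, 1.00 to 1.48).

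Of these, *Cd14* calls for care. The lipopolysaccharide coreceptor had 25.6 and 69.3 CPM (1.44, 1.15 to 1.74) in members, 155 and 253 CPM in injured barcodes and 687 and 737 CPM in the *Ptprc* barcodes, so it is not a proximal tubule transcript alone. *Aebp1* (1.33), *Sytl2* (1.37), *Nuak2* (1.23) and *Ahnak* (1.29) had smaller ratios of the same sign in injured barcodes (0.60, 0.37, 0.78 and 0.77). *Gsta4*, at 0.05 in injured barcodes, was the gene of the 15 with the smallest ratio there.

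The 15 lowest, *Kap* being kept out by the limit on 1 barcode, were *Ces1f*, *Ugt8a*, *Cyp2j13*, *Slc51a*, *Cyp2e1*, *Atp11a*, *Agt*, *Bcl6*, *Slc22a2*, *Gm42418*, *Lars2*, *Inmt*, *Ugt2b37*, *Kyat1* and *B4galt5*. *Ugt8a*, which makes galactosylceramide, had 36.3 and 11.1 CPM (-1.71, -2.10 to -1.33). *Bcl6*, a transcriptional repressor, had 42.4 and 18.0 CPM (-1.24, -1.56 to -0.92), and *Inmt*, a methyltransferase, 83.2 and 41.2 CPM (-1.02, -1.23 to -0.80). *Gm42418* and *Lars2* overlap reads of ribosomal RNA and were low in all kinds of barcode, *Gm42418* at 4645 and 3491 CPM in the *Ptprc* barcodes. *B4galt5* (-0.97) stood at -0.14 in members without an S3 UMI.

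Other cell types left traces in the members. At least 3 UMIs of other types' markers were held by 79 and 122 members. Macrophage genes summed to 2319 and 2918 CPM, most of it *Apoe* and *Cd74*, with a median log2 ratio of 0.01 over 10 genes. Fibroblast and mural genes summed to 137 and 360 CPM with a median ratio of 2.81, but *Mgp* gave 144 and 1512 of those UMIs, 45.4% of them in the library labelled PHDTiEC from 1 barcode, and without members holding other types' markers the median was -0.12. Collecting duct genes summed to 156 and 87.6 CPM, thick ascending limb and distal genes to 70.1 and 105 CPM, neutrophil genes to 96.5 and 69.1 CPM, endothelial genes to 35.7 and 49.6 CPM and podocyte genes to 13.8 and 18.6 CPM. *Pvalb* of the distal convoluted tubule was at 0 in both libraries. Doublet scores left out 10 (4.02%) and 26 (6.08%) members as an alternative, and the removal kept the direction of the male-biased, organic ion, S3 and mitochondrial lists.

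The members were last set against the injured proximal tubule barcodes of the same library. The rule itself separates these barcodes, so the contrast is a description from which nothing is read. Of 9685 genes, 377 (3.89%) were higher in members by a log2 ratio of at least 1 in both libraries and 771 (7.96%) lower. The highest by the mean of both libraries were *Car3*, a carbonic anhydrase (4.08), *Dpep1* (3.93) and *Spp2* (3.59), followed by *BC024386*, *Ces1f*, *Rdh16f2*, *Clec2h*, the phosphate cotransporter *Slc34a3* (3.31), *G6pc* (3.10) and *Slc22a28*. The lowest were the neutrophil chemokine *Cxcl5* (-6.14), *Il1f6* (-5.70), *Sox11* (-5.60) and *Mmp7* (-5.49), followed by *Traf1*, *Basp1*, Gm15987, Il4i1 and *Ccl2* (-4.92). By the same limit, 28 of the 36 injury genes and 18 of 46 NF-kB and immediate early genes were lower in members. All 13 mitochondrially encoded genes were higher in members.

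The lists were also summed per barcode in members and injured barcodes, again as a description only. Solute transport genes took a median of 115 and 107 UMIs per 10000 in members and 52.4 and 47.6 in injured barcodes. Fatty acid oxidation genes took 55.5 and 50.3 against 23.9 and 22.4, and injury genes 183 and 204 against 619 and 549. Most of the injury sum was *Spp1*, at 20326 of 24223 CPM and 19965 of 24097 CPM in members. In injured barcodes *Spp1* had 48141 of 63658 CPM and 39280 of 56295 CPM. The injury values per barcode are therefore largely those of this gene. Within members, barcodes with more fatty acid oxidation RNA had less injury RNA, with Spearman's rho of -0.58 over 249 barcodes and -0.40 over 428. Both are shares of the same barcode's UMIs. Members with more mitochondrial RNA had less NF-kB and immediate early RNA, with rho of -0.44 and -0.46.

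**Figure D5:**
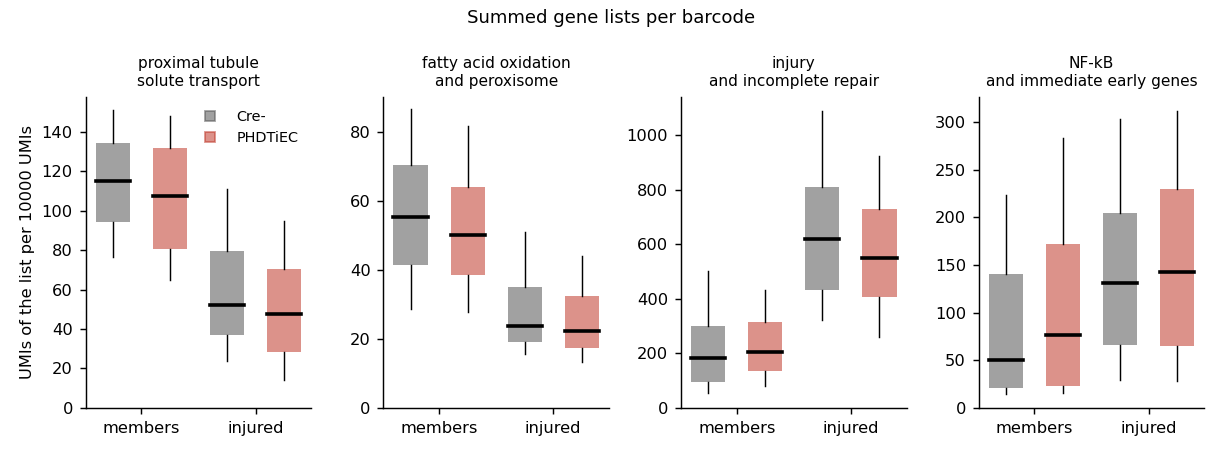
Boxes span the quartiles of the UMIs of a list per 10000 UMIs of the barcode, with the median as a line and whiskers to the 10th and 90th percentiles, for differentiated members and injured barcodes of each library. Median injury RNA was 183 and 204 in members and 619 and 549 in injured barcodes, while the median of solute transport was 115 and 107 against 52.4 and 47.6. The injury sum was mostly *Spp1*.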

How the data were processed

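The authors aligned 10X Genomics 3′ reads to mm10 with Cell Ranger 4 and deposited whole-number UMI counts of 32285 genes in all possible barcodes, with no cell filter or normalization. The barcode and gene lists carry no measurements. Here, counts were summed over the selected barcodes of each library and divided by their total (CPM). Log2 ratios carry Clopper-Pearson 95% intervals of the split of a gene's counts. Lists were summarized over genes with at least 50 UMIs and counted past 0.5 on the log2 scale over genes with at least 200. The members and the 31 lists were chosen with earlier results of these data known. Named genes were the floxed, rule and marker genes, the extremes and best-known genes of each list, and the 15 highest and 15 lowest. *Clock* genes, *Ap2b1*, *Acmsd* and *Slc16a1* were added after their values were seen. Injured barcodes had at least 5 UMIs of *Havcr1* and *Krt20*. Doublet scores came from simulated doublets, and the top 6% were left out only as an alternative, a limit that 59.2% and 54.2% of simulated doublets reached. The sums were tested on simulated data. Coordinates are GENCODE vM21 on GRCm38. Versions were Python 3.11.15, numpy 2.4.6, scipy 1.17.1 and edgeR 4.0.16 (TMM factors only). Some genes of the lists, counted in their summaries, and some of the motifs searched are not reported here.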

Additional observations from a re-analysis of the deposited data

How the results depend on the processing

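No paired analysis was possible because each genotype has 1 library and the labels carry no replicate numbers. Share, gene counts, list medians and named genes were recomputed under 14 alternatives listed in advance and 2 chosen after the data were seen (members without a UMI of the S3 genes, and shared barcodes left out). The share ratio ran from 1.495 to 1.694, except for 2.25 without S3 UMIs. Genes higher past the limit numbered 187 without mitochondrial and related genes in the totals, 435 for the mean over members, 931 after thinning to 3000 UMIs, 1662 with a minimum of 10 UMIs and 119 without S3 UMIs. Lower genes numbered 477, 1083 and 71 under the last 3 of these. Thinning and the lower minimum admit noisier genes by construction, and the cause was not tested for the others. The injury list's median was 0.28 with a transporter sum of 16 per 10000. Of the main results, 119 of 129 recomputed values lay within the counting interval of the reported value (for a list, the medians of its genes' bounds), or within 1.5 times of it for gene counts. Of the other lists' medians 332 of 371 lay within it, 31 did not and 8 more changed sign from past 0.5, and of single genes' ratios 1400 of 1677 lay within it, 260 did not and 17 more changed sign from past 0.5. Without S3 UMIs, the medians of the injury, HIF and NF-kB lists lay just under 0 (-0.035, -0.055 and -0.063), against 0.07, 0.20 and 0.16 as reported.

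Among lists and named genes past 0.5 in size, 4 lists of other cell types and 8 genes changed sign under some alternative. With a sum of 16, collecting duct genes had a median of 0.57, *Clu* 1.09 and *Lcn2* 1.74. Without members holding other types' UMIs, fibroblast and mural genes had -0.12, *Mgp* -0.34, *Clu* 0.050 and *Lcn2* 0.14. Without the highest doublet scores, collecting duct genes had 0.019, fibroblast and mural genes -1.66, *Vim* -0.12, *Clu* 0.37 and *Lcn2* 0.65. With a mitochondrial limit of 20%, podocyte genes had -0.49. With no *Havcr1* or *Krt20* UMI, podocyte genes had -1.02, *S100a6* -0.064 and *Cxcl2* 0.82. *Lcn2* had 0.47 for the mean over members and 0.46 after thinning, and *Cxcl2* 0.16 without its top barcode. Without S3 UMIs, thick ascending limb and distal genes had -0.093, collecting duct genes 0.39, *Cdh6* -0.10, *Clu* 0.55, *Lcn2* 1.62 and *Ccl2* 2.28. The cause of these was not tested. A mean over segment ranges was not run, since the S3 range held 5 and 4 members. Genes with few UMIs, such as *Egln3*, cannot be placed within a log2 unit at this depth.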

Other observations

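Because *Dbp* had the highest log2 ratio of all genes named by size, other genes of the circadian clock were looked up in the differentiated proximal tubule barcodes after its value had been seen. The 3 period genes of the negative arm were higher in the library labelled PHDTiEC, with log2 ratios of CPM over the Cre- library of 1.01 for *Per1* (95% counting interval 0.26 to 1.83), 1.45 for *Per2* (0.25 to 2.87) and 1.25 for *Per3* (0.56 to 1.99). These rested on few UMIs, 19 and 66 for *Per1*, 7 and 33 for *Per2* and 22 and 90 for *Per3*. The cryptochrome genes of the same arm were also sparse, with 10 and 14 UMIs for *Cry1* and 38 and 83 for *Cry2*. Their intervals held 0, with ratios of -0.30 for *Cry1* (-1.58 to 1.03) and 0.34 for *Cry2* (-0.23 to 0.94). *Arntl*, which encodes the activator BMAL1, was lower, with -0.90 (-1.51 to -0.30), and so was its partner *Npas2*, with -1.48 (-2.20 to -0.78). In injured barcodes *Dbp* had 0.36 (0.01 to 0.70), *Per1* 1.00 (0.57 to 1.45), *Arntl* 0.00 (-0.48 to 0.48) and *Npas2* -0.41 (-0.97 to 0.14). There the intervals of *Per2* (0.68, -0.21 to 1.59) and *Per3* (0.36, -0.12 to 0.84) held 0, and *Nr1d1* had 0.33 (0.06 to 0.59). In members *Nr1d1* had a ratio of -0.44, *Tef* 0.16, *Hlf* 0.29 and *Clock* 0.04. The hour at which each kidney was collected is not given in the sources used here, and nothing was tested.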
